A study of Homo sapiens with 6 samples.

Results

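Hemidesmosomes are the junctions that fasten basal keratinocytes to the basement membrane. Their core is the integrin made of ITGA6 and ITGB4, joined by the transmembrane collagen COL17A1. On the inner side the plakins DST and PLEC tie both to keratin filaments. On the outer side the integrin binds laminin-332, a trimer that holds LAMA3 and LAMB3, and anchoring fibrils of COL7A1 hold that laminin to the dermis. LAMA5 is the long chain of laminin-511, another ligand of the epidermal basement membrane. Inherited loss of most of these genes blisters the skin. The 9 genes ITGA6, ITGB4, COL17A1, DST, PLEC, LAMA3, LAMB3, LAMA5 and COL7A1 were taken by name from the 27988 genes named in the deposited files, and all 9 were among the 15647 genes that could be tested.

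The libraries came from HaCaT, a spontaneously immortalised human keratinocyte line grown in high glucose medium with 10% fetal calf serum. One group of 3 libraries was transfected with 100 pmol siRNA targeting PSENEN, which encodes a subunit of γ-secretase, the protease that cleaves Notch receptors. The control group of 3 received a mismatch siRNA, and Lipofectamine 2000 was the reagent. RNA was taken at 48 and 72 h, and the labels do not say which time was sequenced. They do not say whether libraries of a group came from separate cultures, so p-values measure the spread between these libraries, which may be technical. A group given the reagent alone is described in the labels and was not analysed here. Levels are in TPM, a deposited unit scaled for transcript length and library size, and a gene level is the sum over its annotated transcripts. The design asks whether the level of each gene differed between the groups.

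PSENEN itself was at 1.75, 2.08 and 1.496 TPM in PSENEN siRNA libraries 1 to 3 and at 6.58, 8.85 and 6.55 TPM in mismatch siRNA libraries 1 to 3. It fell by 1.58 on the log2(TPM + 1) scale (SE 0.18, limma adjusted p = 0.0471), to 24.2% of the control mean. Estimated depth was 9.16 to 11.9 gigabases per PSENEN siRNA library and 11.5 to 15.6 per control. Rank correlations of gene levels were 0.911 to 0.922 within groups and 0.902 to 0.913 between them. The 10 genes listed as keratinocyte markers were KRT5, KRT14, TP63, SFN, PERP, CDH1, DSP, JUP, EPCAM and KRT18. The list was not limited to genes particular to keratinocytes. All 10 were detected, with summed levels of 3881 to 4572 TPM after PSENEN siRNA and 4094 to 8114 TPM in the controls. These sums include KRT14, whose annotated transcripts were at 675, 3913 and 146 TPM in mismatch siRNA libraries 1 to 3. By the median coverage of its exons KRT14 was at 3044, 4354 and 4586 there, so the control sums depend on what was counted. Summed fibroblast markers were at 0.460 to 1.01 TPM and 1.18 to 1.47 TPM, with 3 of 6 at 0 throughout, and COL1A1 made up nearly all of that level. Melanocyte, endothelial and immune marker sums were at most 0.754 TPM in every library, and 10 of their 14 genes were at 0 throughout.

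None of the 9 genes passed limma's adjusted p of 0.05, against 64 of all 15647 genes tested (0.409%). At an unadjusted p under 0.05 the count was 1 of 9, which was LAMA3, against 2031 genes (13%). LAMA3 was also the one gene of the 9 whose groups did not overlap, where the share over all genes was 21.9% (13.7% lower and 8.21% higher). The log2 change was negative for 6 genes and positive for 3, with a median of -0.16 against -0.04 over all tested genes. LAMA3, the α chain of laminin-332, stood at 53.8 ± 1.71 TPM after PSENEN siRNA and 94.5 ± 12.5 TPM in the controls (SD, n = 3 each), 56.9% of the control mean. Its adjusted p was 0.0743, outside the threshold. In bulk RNA, fewer cells with a transcript and less of it per cell cannot be told apart.

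**Figure D1:**
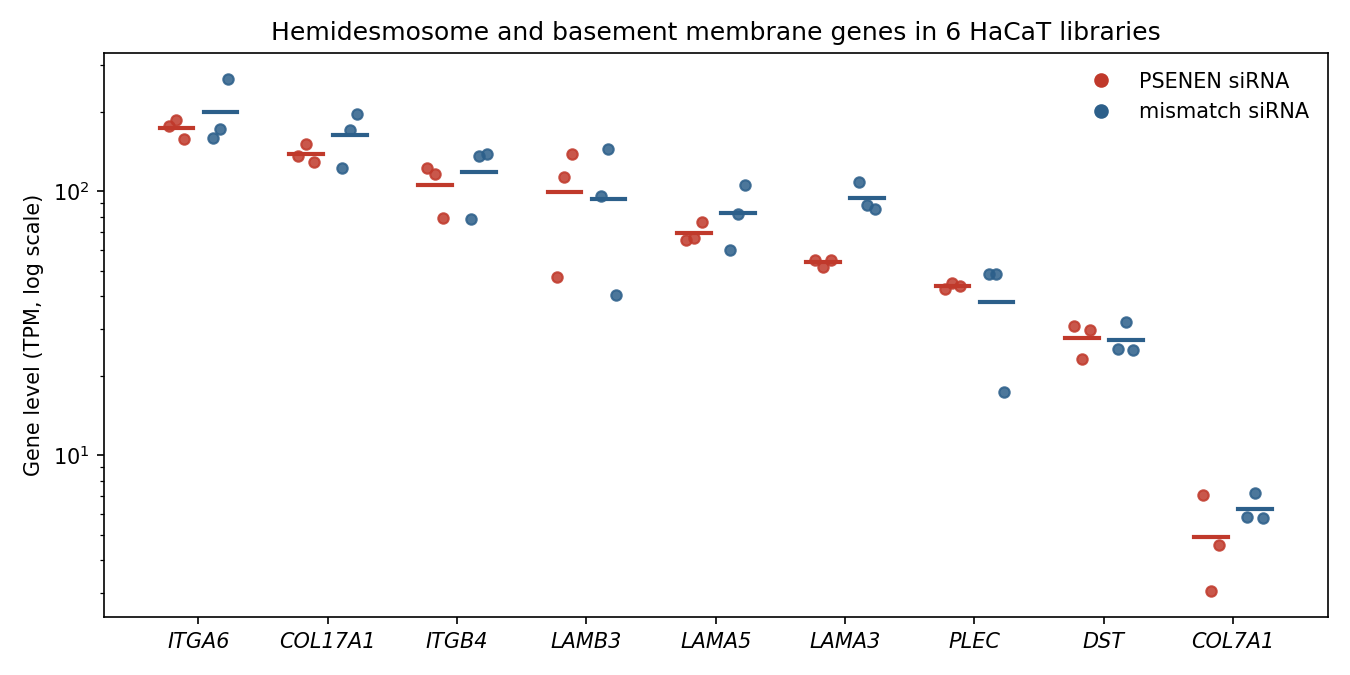
Level of each gene in TPM (log axis) in the 3 PSENEN siRNA libraries (red) and the 3 mismatch siRNA libraries (blue), where points are libraries and bars are means. LAMA3 is the gene whose red and blue points do not overlap, with 51.8 to 54.8 TPM against 85.9 to 109 TPM.

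Ordered by mean level over the 6 libraries, the genes ran ITGA6, COL17A1, ITGB4, LAMB3, LAMA5, LAMA3, PLEC, DST and COL7A1. ITGA6 was above COL17A1, COL17A1 above ITGB4, LAMA3 above PLEC and DST above COL7A1 in 6 of 6 libraries. PLEC exceeded DST in 5 of 6. The neighbours in the middle did not keep their order, with ITGB4 above LAMB3 in 3 of 6, LAMB3 above LAMA5 in 4 and LAMA5 above LAMA3 in 4. These orders are for annotated TPM and were not all kept by median exon coverage. There ITGB4 averaged 111 after PSENEN siRNA and 115 in the controls, above COL17A1 at 87.0 and 104. PLEC lay above LAMA3 after PSENEN siRNA (68.5 against 54.8) and below it in the controls (66.0 against 92.4). ITGA6 stayed above COL17A1, and DST above COL7A1.

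LAMA3 makes a short and a long α chain from separate promoters. The short form is the one joined to LAMB3 in epidermis. The RefSeq promoter window of the short form was searched because LAMA3 had the smallest p of the 9 genes. It lies at chr18:23872770-23873069 on the plus strand of GRCh38.p14, covering 250 bases before the RefSeq start site at 23873020 and 50 after. The GENCODE start of LAMA3-201 lies 180 bases upstream of that site, within the window. The search was for TGACTCA or TGAGTCA, the letters bound by AP-1 factors and reverse complements of each other, on both strands. The window held 2 matches, shown in capitals with 10 bases on each side, at chr18:23872885-23872911 and chr18:23872941-23872967.

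LAMA3 first match: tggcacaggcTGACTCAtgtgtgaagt

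LAMA3 second match: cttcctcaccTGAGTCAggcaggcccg

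The matches begin 125 and 69 bases before the RefSeq start site but 55 and 111 bases after the start of LAMA3-201, inside its first exon. Which start the cells used was not tested. Of 34943 RefSeq promoter windows of this length, 4.96% held a match and 0.223% held 2 or more. The table matched 7 of the 9 genes with 12 windows, and 3 of the 12 held a match: this one, 1 window of LAMB3 and 1 of DST upstream of its long forms. A match describes letters in a window and not a bound site, and no binding was measured here.

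LAMA3 (ENSG00000053747, chr18:23689443-23956222, plus strand, the GENCODE 29 span as for the genes below) was at 54.7, 51.8 and 54.8 TPM in PSENEN siRNA libraries 1 to 3 and at 109, 88.8 and 85.9 TPM in mismatch siRNA libraries 1 to 3. Every PSENEN siRNA library lay below every control, and the 3 PSENEN siRNA values lay closer together than the controls. The log2 change was -0.79 (SE 0.12, 95% interval -1.08 to -0.51, limma adjusted p = 0.0743). Over all genes, 4.34% had a change at least as far below 0 and 0.671% had an adjusted p at or below this one. The adjusted p ranged from 0.0567 to 0.349 over the alternative settings, without reaching the threshold in any. Of the 10 genes listed as keratinocyte markers, 8 also had negative changes (median -0.29), against 8541 of all 15647 tested genes (median -0.04). The groups of 5 markers did not overlap, where the share over all tested genes was 21.9% (13.7% lower), and 0 markers passed limma's threshold. KRT14 counted as positive at 0.97, but its change was -1.30 by median exon coverage. TP63, the basal keratinocyte regulator, named after its values were seen, was at 56.9, 61.3 and 57.7 TPM against 76.8, 82.0 and 78.9 TPM (log2 change -0.43, limma adjusted p = 0.123), and its change was -0.79 by median exon coverage (adjusted p = 0.0816). Any relation of these marker changes to the LAMA3 values was not tested.

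The short-form transcript LAMA3-201 (ENST00000269217, 38 exons) held 93.4% of LAMA3 TPM. Its start-site group held 94.4% ± 0.386 of LAMA3 TPM after PSENEN siRNA and 93.6% ± 5.27 in the controls (exact permutation p = 1), so the measured forms shared one start at nearly equal proportions in both groups. LAMA3-202, the long form of 75 exons, held 0.136%. Of the transcripts that start near LAMA3-202, LAMA3-203 (74 exons) held 0.896% and LAMA3-204 (13 exons) held 1.84%. Coverage of single exons, summed over every transcript of the strand and put on the TPM scale, was lower in all PSENEN siRNA libraries than in all controls for 38 of 38 exons. Exon means ran from 46.7% to 76.7% of the control. Exons of one gene share reads and fragments, so they are not separate tests. The median over exons was 52.9, 51.0 and 60.5 after PSENEN siRNA and 105, 88.1 and 83.9 in the controls (log2 change -0.74, limma adjusted p = 0.0612). By that measure 0 of the 9 genes passed the threshold, against 0.812% of all genes, and 15.7% of all genes had lower, non-overlapping groups.

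LAMB3 (ENSG00000196878, chr1:209614870-209652466, minus strand), the β chain of laminin-332, was at 47.4, 113 and 138 TPM after PSENEN siRNA and at 95.6, 145 and 40.4 TPM in the controls. The lowest values were in PSENEN siRNA library 1 and mismatch siRNA library 3, so both groups spanned nearly the same range. The log2 change was 0.13 with a wide 95% interval of -1.27 to 1.54. In those 2 libraries 41.7 and 50.7 TPM of LAMB3 sat in assembled transcripts, which StringTie built from reads without a matching annotated model. Counting assembled transcripts that share an intron with the gene gave 89.1, 129 and 152 TPM against 95.6, 164 and 91.0 TPM. The range narrowed, the groups still overlapped, and the log2 change was 0.10 (95% interval -0.59 to 0.78).

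The ratio of LAMA3 to LAMB3 overlapped in TPM, at 1.15, 0.459 and 0.396 after PSENEN siRNA and 1.14, 0.612 and 2.13 in the controls (exact permutation p = 0.3), while from median exon coverage it was 0.443, 0.380 and 0.409 against 1.15, 0.513 and 0.647 (exact permutation p = 0.1, the smallest that 3 against 3 libraries allow). In that measure every PSENEN siRNA ratio lay below every control ratio. The same ratio with assembled transcripts was 0.493 ± 0.137 against 0.887 ± 0.305 (SD, n = 3, exact permutation p = 0.2). There the groups overlapped, as PSENEN siRNA library 1 (0.652) lay above mismatch siRNA library 2 (0.547). The mean ratio was lower after PSENEN siRNA by each measure, but whether the groups separated depended on what was counted.

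LAMA5 (ENSG00000130702, chr20:62307955-62367312, minus strand) was at 65.4, 66.7 and 76.5 TPM after PSENEN siRNA and at 60.1, 82.1 and 106 TPM in the controls. The controls spread more widely and enclosed the PSENEN siRNA values. LAMA5 had a log2 change of -0.21 (95% interval -0.73 to 0.30, limma adjusted p = 0.703), and it was 0.02 with assembled transcripts, of which PSENEN siRNA library 1 held 55.6 TPM. The share of LAMA5 TPM from the start of the full-length LAMA5-201 was 45.7%, 58.5% and 56.4% after PSENEN siRNA and 62.5%, 61.5% and 59.0% in the controls (exact permutation p = 0.1). With assembled transcripts the groups differed by -5.23 percentage points (exact permutation p = 0.7). This was 1 of 25 start-site shares computed over the 9 genes. ADRM1 and an antisense RNA overlap LAMA5, and the strandedness of the libraries is not given in the sources used here, so reads of overlapping genes may be mixed.

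ITGA6 and ITGB4 form the integrin that binds laminin-332, and ITGB4 carries the long cytoplasmic tail that recruits the plakins. ITGA6 (ENSG00000091409, chr2:172427354-172506282, plus strand) was at 177, 187 and 158 TPM after PSENEN siRNA and at 159, 172 and 267 TPM in the controls. Only mismatch siRNA library 3 stood above the PSENEN siRNA values. The log2 change was -0.16 (95% interval -0.67 to 0.34, limma adjusted p = 0.770). By median exon coverage ITGA6 was at 213, 202 and 133 against 247, 264 and 289, without overlap (log2 change -0.57, 95% interval -1.02 to -0.12, adjusted p = 0.226). Of its 26 exons, 21 had lower, non-overlapping values after PSENEN siRNA. The last exon went the other way, at 143, 180 and 208 against 23.8, 105 and 193, with overlapping groups. Antisense genes, ITGA6-AS1 among them, overlap ITGA6 on the other strand.

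ITGA6 has a pair of cytoplasmic tails chosen by exon 25 of ITGA6-201 (ENST00000264107). Including it gives the α6A tail and skipping it gives the α6B tail. The exon lies at chr2:172501772-172501901 on the plus strand of GRCh38, and its coding part is shown because it is the stretch that separates the tails, with the stop codon in capitals.

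ITGA6 exon 25, coding part: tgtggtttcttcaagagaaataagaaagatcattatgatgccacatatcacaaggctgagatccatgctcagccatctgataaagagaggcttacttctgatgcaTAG

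Transcripts with the exon took 69.0%, 99.7% and 88.9% of TPM with or without it after PSENEN siRNA and 98.4%, 98.0% and 77.5% in the controls (exact permutation p = 0.7). The form with the exon was the main one in all 6 libraries, and the spread within groups exceeded the difference between their means of 85.9% and 91.3%.

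ITGB4 (ENSG00000132470, chr17:75721328-75757818, plus strand) was at 123, 116 and 79.3 TPM after PSENEN siRNA and at 78.6, 136 and 139 TPM in the controls. Each group held 1 low library. ITGB4 had a log2 change of -0.13 (95% interval -0.80 to 0.54, limma adjusted p = 0.870). With assembled transcripts, which added 66.3 TPM in mismatch siRNA library 1, the values were 123, 127 and 106 against 145, 136 and 151 TPM. These did not overlap (log2 change -0.28, 95% interval -0.53 to -0.03, adjusted p = 0.298), as for 22.6% of all tested genes so counted, with lower values in 14.6% of all tested genes. Counted in this way 0 of the 9 genes passed the threshold, against 0.564% of all genes. Median exon coverage overlapped, at 104, 120 and 110 against 110, 115 and 119. The ratio of ITGA6 to ITGB4 TPM was 1.68 ± 0.281 after PSENEN siRNA and 1.74 ± 0.415 in the controls (SD, n = 3, exact permutation p = 0.9), and from median exon coverage 1.65 ± 0.421 against 2.32 ± 0.0864 (exact permutation p = 0.1). With assembled transcripts the ratio was 1.58 ± 0.180 against 1.52 ± 0.365 (exact permutation p = 0.8), so its direction and size both depended on what was counted.

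COL17A1 (ENSG00000065618, chr10:104031286-104085957, minus strand), the transmembrane collagen known as an autoantigen of bullous pemphigoid, was at 136, 151 and 129 TPM after PSENEN siRNA and at 122, 171 and 195 TPM in the controls. The second and the third control lay above all PSENEN siRNA libraries and the first lay below them. COL17A1 had a log2 change of -0.21 (95% interval -0.66 to 0.24, limma adjusted p = 0.670). All 56 exons of COL17A1-201 had a lower mean after PSENEN siRNA, at 75.6% to 96.1% of the control, and 20 of them did not overlap. The median exon coverage was 88.0, 89.3 and 83.8 against 90.9, 103 and 119, a small gap without overlap (log2 change -0.25, 95% interval -0.53 to 0.03, adjusted p = 0.368).

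**Figure D2:**
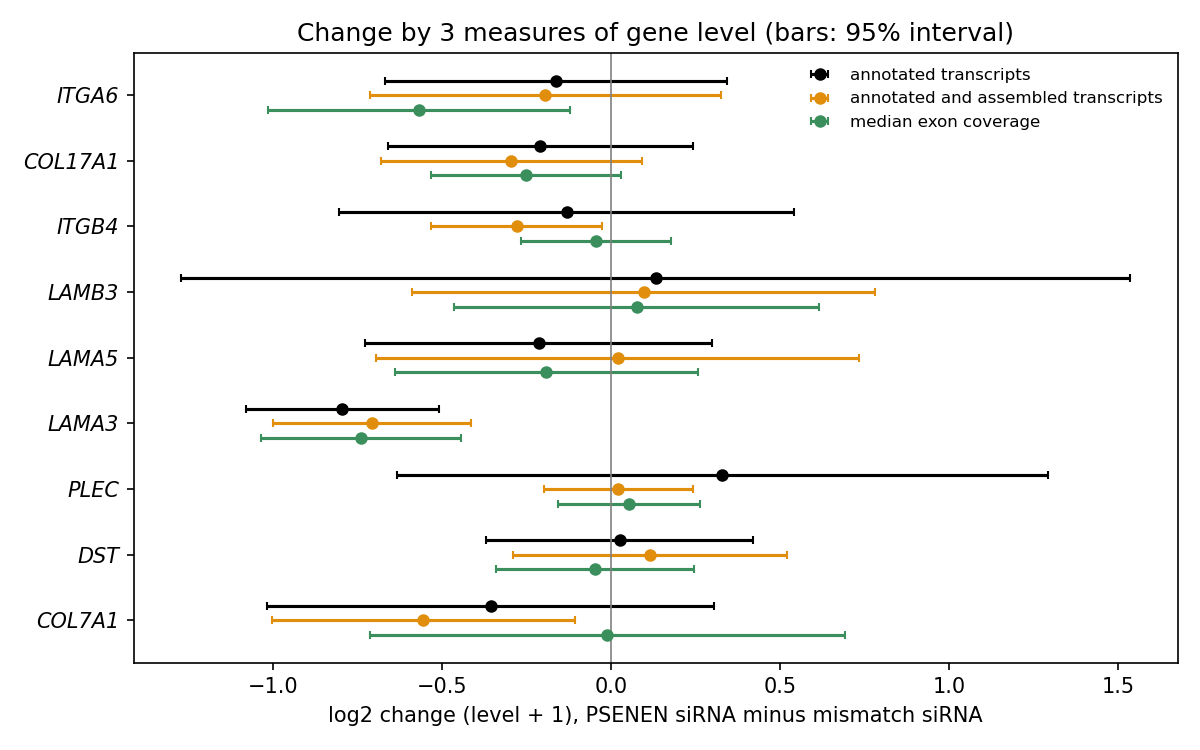
Log2 change of each gene, PSENEN siRNA minus mismatch siRNA, with its 95% interval, from annotated transcripts (black), annotated and assembled transcripts (orange) and median exon coverage (green). The 3 intervals of LAMA3 lie below 0 (-0.79, -0.71 and -0.74), while those of LAMB3, PLEC and DST span 0 by each measure.

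DST encodes several plakins from separate starts. The epithelial form is the hemidesmosomal linker to keratin, and longer forms serve in nerve and muscle. DST (ENSG00000151914, chr6:56457987-56954628, minus strand) was at 30.8, 23.2 and 29.8 TPM after PSENEN siRNA and at 25.2, 32.0 and 24.99 TPM in the controls, and the groups covered the same range. DST had a log2 change of 0.03 (95% interval -0.37 to 0.42, limma adjusted p = 0.960). Assembled transcripts held at least 24.3% of DST in every library, and with them the log2 change was 0.11 (95% interval -0.29 to 0.52). The start-site group that includes DST-201 held 42.2% ± 15.2 of annotated DST TPM after PSENEN siRNA and 41.8% ± 10.1 in the controls (SD, n = 3, exact permutation p = 1).

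Along DST the exons did not behave alike. The annotated epithelial transcript DST-205 (ENST00000370765, 24 exons) was listed in 0 of the 6 libraries, while assembled transcripts with its end and a start within 500 bases of its own were at 5.70, 20.3 and 6.25 TPM after PSENEN siRNA and 3.28, 8.29 and 4.10 TPM in the controls (exact permutation p = 0.4). Exons 1 to 22 of DST-201, the part shared with DST-205, had a median coverage of 35.8, 33.8 and 36.9 after PSENEN siRNA and 28.9, 31.5 and 26.1 in the controls (exact permutation p = 0.1). Exons 23 to 84 stood at 15.4, 16.4 and 12.7 against 14.7, 15.9 and 15.3 (exact permutation p = 0.9). The first stretch was thus higher in every PSENEN siRNA library, at 123% of the control mean, and the second overlapped. The 2 exons that DST-205 does not share, at chr6:56617986-56620715 and chr6:56614576-56617418, were at 11.8, 14.4 and 11.7 against 7.98, 8.85 and 7.52, and at 11.9, 20.1 and 17.1 against 7.59, 11.6 and 9.95. Both were higher in all 3 PSENEN siRNA libraries (exact permutation p = 0.1 each). This division of the exons was chosen after the values were seen, and no test over all genes was made of it.

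**Figure D3:**
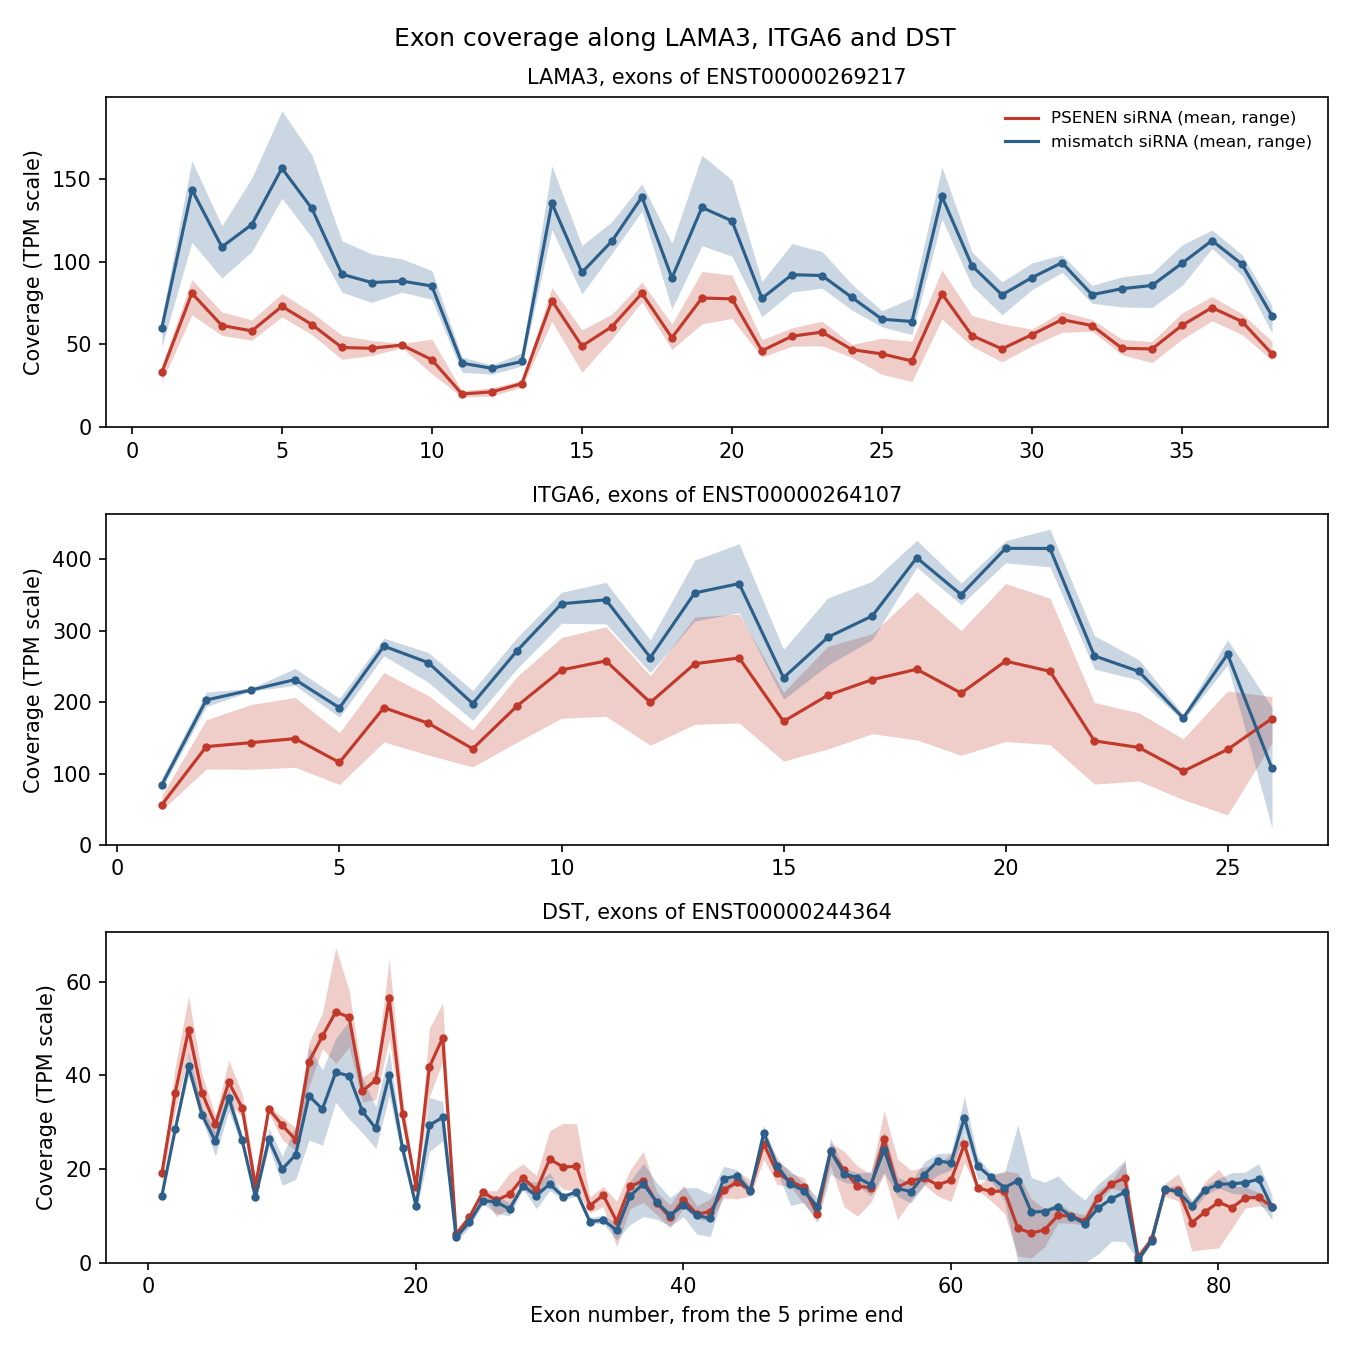
Coverage of each exon on the TPM scale along LAMA3-201, ITGA6-201 and DST-201, numbered from the 5′ end, with the mean (line) and the range (band) of 3 PSENEN siRNA libraries (red) and 3 mismatch siRNA libraries (blue). The LAMA3 bands stay apart over 38 of 38 exons, the ITGA6 lines cross at the last exon, and DST coverage is higher over exons 1 to 22 than beyond.

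PLEC (ENSG00000178209, chr8:143915147-143976734, minus strand) links ITGB4 to keratin. It was at 42.8, 45.0 and 43.6 TPM after PSENEN siRNA and at 48.8, 48.7 and 17.3 TPM in the controls, where mismatch siRNA library 3 stood far below the others. PLEC had a log2 change of 0.33 (95% interval -0.63 to 1.29, limma adjusted p = 0.755), and -0.15 without that library. The same library held 30.9 TPM of PLEC in assembled transcripts. Counting them gave 49.5, 52.8 and 48.4 against 48.8, 51.5 and 48.2 TPM, nearly one level in all 6 libraries (log2 change 0.02, 95% interval -0.20 to 0.24). Of the 9 genes, PLEC and ITGB4 had the narrowest intervals by median exon coverage, at -0.16 to 0.26 and -0.27 to 0.18. Shares of the PLEC start sites shifted from library to library within groups. PLEC-202, for example, took 54.5%, 49.0% and 12.2% after PSENEN siRNA and 49.7%, 52.8% and under 0.001% in the controls.

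**Figure D4:**
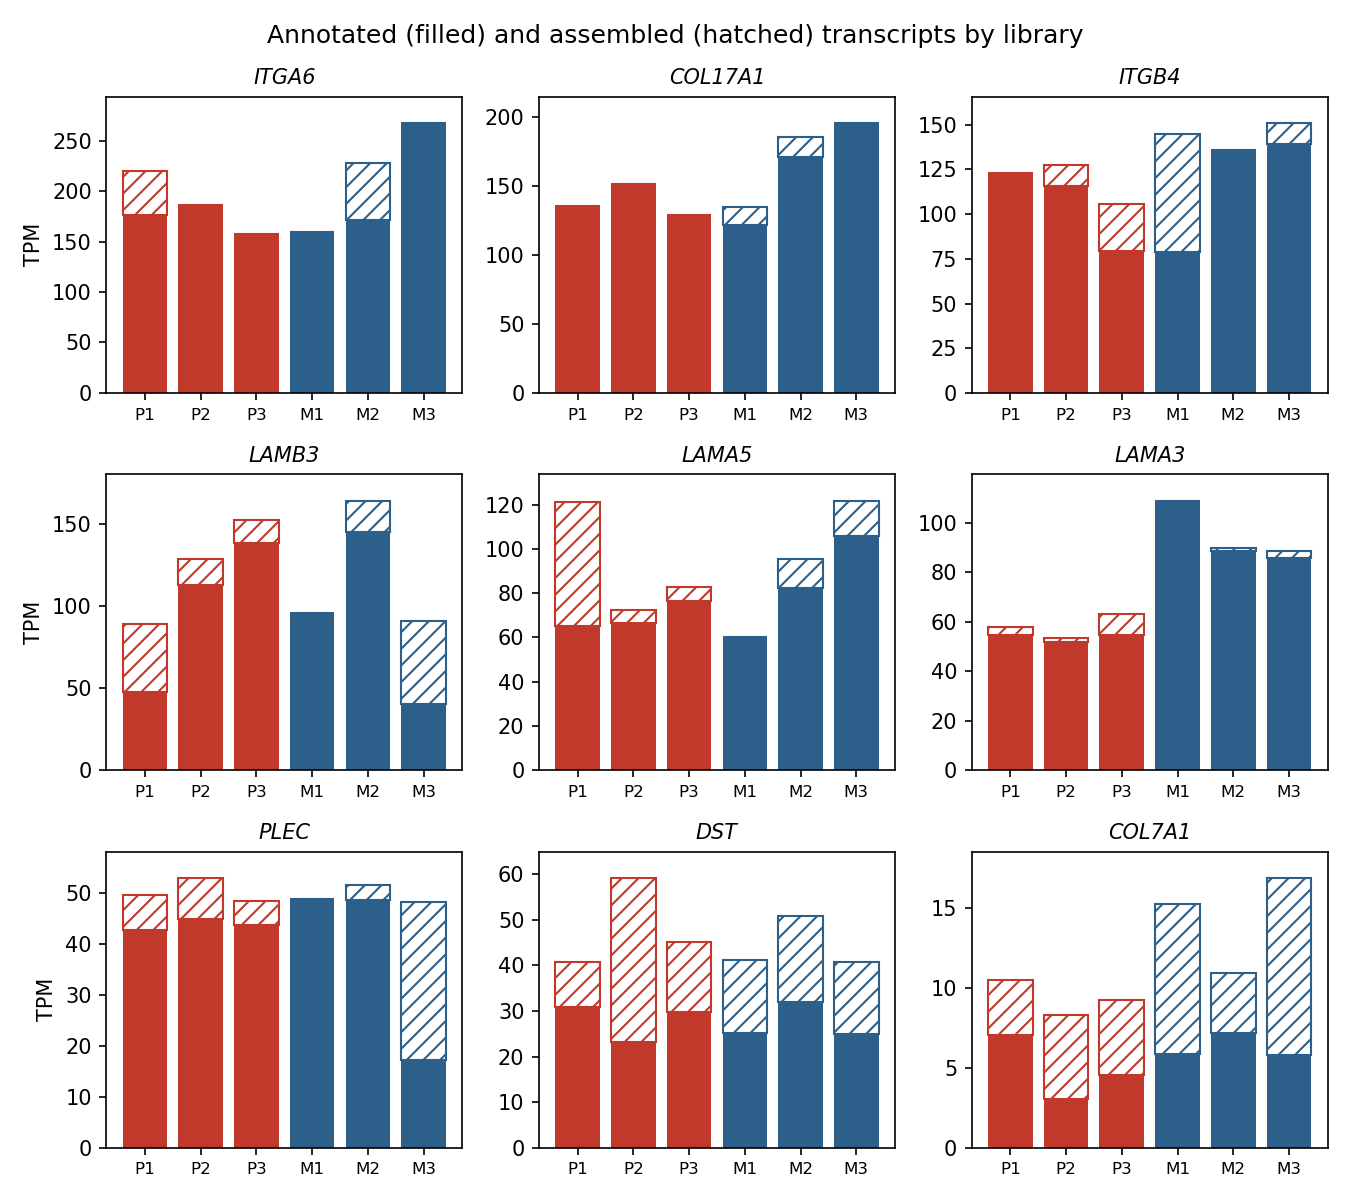
TPM of each gene by library, split into annotated (filled) and assembled (hatched) transcripts, for PSENEN siRNA libraries 1 to 3 (P1 to P3, red) and mismatch siRNA libraries 1 to 3 (M1 to M3, blue). The hatched part fills the gap of PLEC in M3 (30.9 TPM) and much of that of LAMB3 in P1 and M3 (41.7 and 50.7 TPM).

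COL7A1 (ENSG00000114270, chr3:48564073-48595267, minus strand), the collagen of anchoring fibrils, had the lowest level of the 9. It was at 7.08, 3.06 and 4.56 TPM after PSENEN siRNA and at 5.86, 7.18 and 5.80 TPM in the controls, and PSENEN siRNA library 1 lay among the controls. The largest part of this level, 32.6%, was COL7A1-206, a retained-intron transcript of 778 bases, while the coding COL7A1-201 held 31.6%. COL7A1 had a log2 change of -0.36 (95% interval -1.02 to 0.31, limma adjusted p = 0.626). Assembled transcripts held 32.8% to 65.6% of COL7A1 and gave 10.5, 8.29 and 9.23 against 15.3, 10.95 and 16.9 TPM, without overlap (log2 change -0.56, 95% interval -1.004 to -0.11, adjusted p = 0.251). Median exon coverage over its 118 exons overlapped, at 3.87, 4.08 and 4.61 against 2.87, 3.43 and 7.28 (log2 change -0.01). The order of the groups therefore held by one count of COL7A1 and not by another.

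Among 25 other basement membrane genes, 14 could be tested, 0 passed limma's threshold in either direction (3 at an unadjusted p under 0.05), 5 had positive and 9 negative changes, and the median was -0.15. The groups of 4 of the 14 did not overlap, where the shares over all tested genes were 21.9% for groups that did not overlap and 13% for an unadjusted p under 0.05. COL4A2, a collagen IV chain, was at 28.4, 25.99 and 29.8 TPM against 43.7, 44.7 and 41.6 TPM, without overlap (log2 change -0.61, adjusted p = 0.0831). By median exon coverage its adjusted p was 0.0484 (log2 change -0.71). It was the 1 gene of the list to pass by that measure, against 0.812% of all genes. COL4A1, its partner chain, chosen after its value was seen, had a log2 change of -0.03. FBLN1, a fibulin, had a change of -0.54. The largest positive changes were those of the heparan sulfate proteoglycans AGRN and HSPG2, at 0.89 and 0.76, which became -0.17 and -0.35 with assembled transcripts and 0.11 and 0.011 by median exon coverage.

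Of 17 partners and regulators of hemidesmosomes, 16 could be tested, 0 passed limma's threshold in either direction (3 at an unadjusted p under 0.05), 6 were positive and 10 negative, and the median was -0.15. The groups of 4 of the 16 did not overlap, against 21.9% of all tested genes, and 13% of those had an unadjusted p under 0.05. KRT5 and KRT14 are the basal keratins to which the plakins attach. KRT5 was at 1388, 1175 and 968 TPM after PSENEN siRNA and 1427, 2225 and 2644 TPM in the controls (log2 change -0.80, limma adjusted p = 0.282). KRT14 had a log2 change of 0.97 from annotated transcripts but -1.25 with assembled ones and -1.30 by median exon coverage, where it was at 1741, 1579 and 1476 against 3044, 4354 and 4586 (adjusted p = 0.0343). BCAM, a laminin receptor named after its values were seen, also passed by median exon coverage (log2 change -1.23, adjusted p = 0.0155), at -0.41 from annotated transcripts. By that measure 2 genes of the list passed, against 0.812% of all genes. CD151, a tetraspanin that associates with the ITGA6 integrin, had a change of -0.67, and -0.14 by median exon coverage. KLHL24, a ubiquitin ligase adaptor linked to KRT14 turnover, had a change of 0.31.

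Of 19 genes that modify or cleave collagens and laminins, 15 could be tested, 0 passed limma's threshold (3 at an unadjusted p under 0.05), 9 were positive and 6 negative, and the median was 0.03. The groups of 5 of the 15 did not overlap, against the same 21.9% and, for an unadjusted p under 0.05, 13% of all tested genes. COLGALT1, a collagen galactosyltransferase, was at 73.9, 61.0 and 61.1 TPM against 45.5, 47.2 and 42.3 TPM, without overlap (log2 change 0.52, limma adjusted p = 0.142), with a change of 0.30 by median exon coverage. SERPINH1, the collagen chaperone, had a change of 0.62 with overlapping groups, which was 0.16 with assembled transcripts and 0.084 by median exon coverage. The prolyl hydroxylase subunits P4HA1 and P4HA2 had changes of -0.59 and -0.52, also with overlap, and -0.065 and -0.55 by median exon coverage. ADAM10 and ADAM17, sheddases of COL17A1 and of Notch receptors chosen after their values were seen, had changes of -0.52 and 0.059, and of -0.10 and -0.018 by median exon coverage.

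The 7-base word TGGTTCT, which an earlier look at these data had picked out in genes with lower values, occurs in the coding sequence of PSENEN and in the 3′ UTR of 18.1% of 10675 tested genes. Of the 9 genes, DST and LAMA3 hold it. The word was chosen from these same data, so its occurrence in a gene is not an independent test of any role. The sites are shown on GRCh38 with the word in capitals, at chr6:56458982-56459008 on the minus strand for DST-201 and chr19:35746453-35746479 on the plus strand for PSENEN.

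DST 3′ UTR site: atagtgcaatTGGTTCTaccaaggccc

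PSENEN coding site: caacatcttcTGGTTCTtccgagaggc

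In LAMA3 the word lies only in LAMA3-215, past the annotated end of LAMA3-201, the form that held 93.4% of the level. The 3′ end of LAMA3 RNA in these cells was not measured, so whether that RNA held the word is not known. DST, whose long forms hold the word, had a log2 change of 0.03 summed over all its annotated transcripts. Some of these lack the word, among them DST-203 with 26.2% of DST TPM. The change of the forms that hold the word was not tested separately. The siRNA sequence is not given in the sources used here, and any relation of the word to the siRNA was not tested.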

How the data were processed

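RNA of 6 HaCaT libraries was analysed from the assembly deposited for each. Per the file headers and source column, the authors assembled each library with StringTie, and the deposited values per transcript are TPM, FPKM and coverage per base, with no read counts, so no counting intervals are given. The submitters' processing notes give Bowtie 0.12.2 together with mm8 and mm9, builds of the mouse genome that cannot be those of these human files. Not given in the sources used here are the aligner, the StringTie version, the read length and strandedness. Of 109 transcripts of the 9 genes in the files, 109 were in GENCODE 29 (GRCh38) and 106 had the same position. Depth was estimated from coverage per FPKM.

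Deposited TPM were summed per gene over annotated transcripts. Annotated transcripts took 66.4% to 68.6% of TPM and intron-sharing assembled transcripts took 5.02% to 6.36%. Genes reaching 1 TPM in 3 or more libraries were tested with limma 3.58.1 (R 4.3.3, intensity trend) on log2(TPM + 1), which understates changes of low genes. P-values were adjusted by Benjamini-Hochberg over all genes, with a threshold of 0.05 and 4 residual degrees of freedom. Ratios and shares were compared by exact two-sided permutation tests, whose smallest p is 0.1. Start-site groups joined transcripts starting within 500 bases and had to hold 5% of a gene. Median exon coverage is the median, over exons of the annotated transcript with the most bases, of coverage from all transcripts of the locus. When tested on simulated data for this comparison (15647 genes), the fit recovered 41% of changes of 2-fold and 79% of those of 4-fold, and 6 of its 126 calls were false. Changes were planted only in genes with levels above that of COL7A1, so these recovery rates do not cover it. Noise was drawn as normal and independent, with the spread of each gene, which may differ from the swings between libraries seen here.

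The text names the 9 genes, PSENEN, and from each of 3 lists of partners any called gene, or else the 2 with the largest positive and the 2 with the largest negative change. Genes and lists were chosen with earlier results of these data known. Alternatives were other pseudocounts, filters, units, scalings, no trend, assembled bases, assembled transcripts, the replicate number as a block and each library left out. Files were read in Python 3.11.15 (pandas 2.3.3, NumPy 2.4.6), exact tests used SciPy 1.17.1, and plots used matplotlib 3.10.9.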

Additional observations from a re-analysis of the deposited data

How the results depend on the processing

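None of the 9 genes passed limma's threshold in the main comparison or under any of 19 alternatives, of which 2 were chosen after seeing the data, and the log2 change of LAMA3 stayed between -0.86 and -0.68. The changes of COL17A1 and COL7A1 also stayed below 0. Of all genes, 64 passed in the main comparison, 28 with a pseudocount of 0.1, and 7 to 16 with 1 library left out. The alternatives chosen after seeing the data gave 133 (assembled bases with assembled transcripts) and 127 (median exon coverage). Among calls, 31.3% were higher after PSENEN siRNA in the main comparison, against 70%, 69.2% and 77.8% without mismatch siRNA library 1, 2 or 3 and 12.5% without PSENEN siRNA library 1. With the replicate block, 1 gene passed and the adjusted p of LAMA3 was 0.349. Deviations of same-numbered libraries correlated at -0.0489, 0.000065 and -0.0142, which gave no sign of pairing by number. A weak correlation cannot exclude a pairing whose effect is small beside other differences between libraries.

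Signs turned as follows, and the cause was not tested. LAMA5 was at 0.019 with assembled transcripts and 0.0074 by assembled bases with them, ITGB4 at 0.011 by assembled bases, and DST at -0.048 by median exon coverage. With 1 library left out, the log2 change ranged from -0.30 to 0.067 for ITGA6, -0.40 to 0.064 for ITGB4, -0.049 to 0.15 for DST, -0.15 to 0.57 for PLEC and -0.38 to 0.59 for LAMB3. Without mismatch siRNA library 3, ITGA6 was at 0.067, ITGB4 at 0.010, DST at -0.034, PLEC at -0.15 and LAMB3 at -0.38. DST was at -0.049 without PSENEN siRNA library 1, -0.025 without library 3 and -0.029 without mismatch siRNA library 1. LAMB3 was at -0.025 without PSENEN siRNA library 2 and -0.17 without library 3, and ITGB4 was at 0.064 without library 3. Of 252 recomputed isoform shares, 247 moved by less than the spread between libraries. With 3 libraries a group, intervals from annotated transcripts admit changes of over 1 on the log2 scale for LAMB3, PLEC, LAMA3 and COL7A1. For PLEC the interval was -0.20 to 0.24 with assembled transcripts.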
